A study of Rattus norvegicus with 3 samples.

Results

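Intercalated cells of the collecting duct set the acid content of the urine, and 10 genes of their proton, bicarbonate and ammonia transport were examined in kidney tissue of rats given gamma-aminobutyric acid (GABA). The genes were Atp6v1b1, Atp6v0a4, Atp6v1g3, Slc4a1, Slc26a4, Rhbg, Rhcg, Car2, Aqp6 and Foxi1, listed for these roles and found on the array by the RefSeq accession of each probe. A probe was found for 9 of the 10 genes, 8 of them gave signal above background and could be tested, and 14179 genes and transcripts were tested on the whole array. Atp6v0a4 is not analysed here.

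Type A intercalated cells pump protons into the urine with a vacuolar proton pump (V-ATPase) and return bicarbonate to the blood through the anion exchanger Slc4a1, while type B cells secrete bicarbonate through the exchanger Slc26a4, also named pendrin. Carbonic anhydrase inside these cells makes the protons and bicarbonate from CO2 and water, and the Rh glycoproteins Rhbg and Rhcg carry ammonia, which binds protons in the urine. The forkhead transcription factor Foxi1 is needed for these cells to form and switches on several of the genes named here.

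Male Sprague-Dawley rats were 5 weeks old when bought and were kept for a week before treatment. They received a standard diet with plain drinking water (negative control) or with drinking water holding 200 ppm GABA (G200) for 3 weeks. RNA of kidney tissue, which the labels call a non-tumor region, was hybridized to 3 arrays of 2 colours, each with control RNA in Cy3 (green) and G200 RNA in Cy5 (red). No array had the dyes exchanged, so an effect of the dye and an effect of GABA cannot be told apart. Ratios are log2 of G200 over control on each array, and a gene was called when its limma p-value, adjusted over all genes tested, was under 0.05.

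The control channel varied little between arrays. Over 1390 probes with at least 5 spots, the median difference between arrays in the control channel was 0.37 to 0.53 of the SD between replicate spots, while in the G200 channel it was 1.17 to 1.79 of that SD. Between arrays, the probe means of the control channel thus differed by less than the SD of single spots. Averaging over spots lowers this figure in both channels, so it cannot show that the control RNA was the same. Control was counted as 1 sample, the more cautious count, although the labels give 3 rats per group. On that count the tests leave out the spread between control animals. The labels name a rat for each array, so n = 3 stands for the 3 G200 samples.

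Among the 8 genes tested, Rhbg was called higher in G200, Slc4a1 and Car2 were called lower, and Atp6v1b1, Atp6v1g3, Rhcg, Aqp6 and Foxi1 were not called. These are 3 of 8 genes, against 37.5% of all genes tested, so the share called equals the background of this comparison. By direction, 1 of 8 was higher against a background of 11.5%, and 2 of 8 were lower against 26.0%. The median log2 ratio of the 8 genes was 0.12, beside -0.05 for all genes tested, and it was 0.18, 0.10 and -0.03 on replicates 1, 2 and 3. The directions of Slc4a1 and Car2 differed between scalings of the dyes, as described with each gene. In whole kidney tissue, fewer cells of a type and less RNA per cell cannot be told apart.

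**Figure D1:**
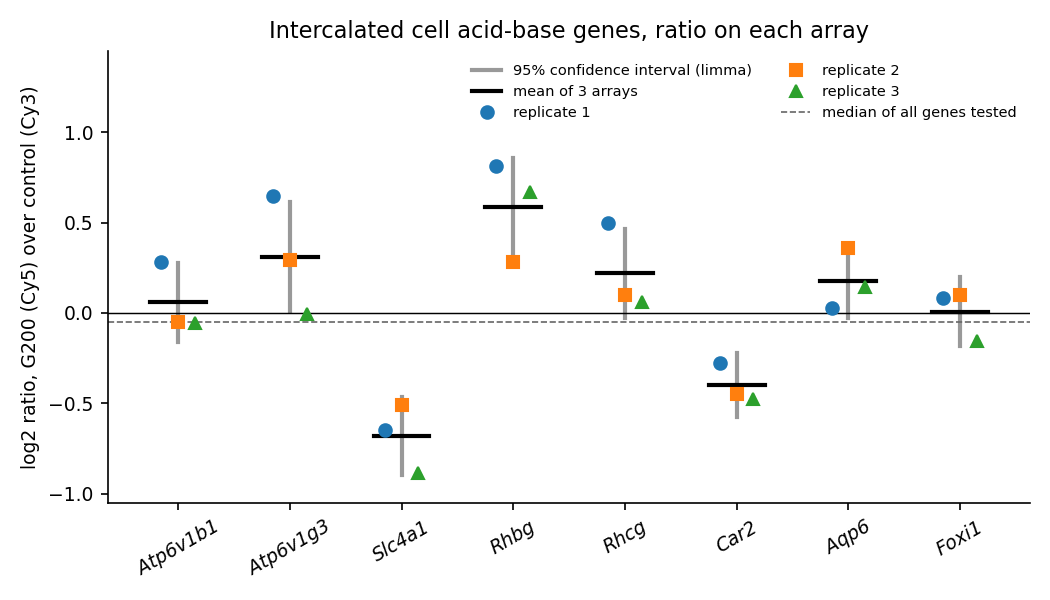
Log2 ratio of G200 over control (vertical axis) for the 8 genes tested, with a point for each array, a black line at the mean and a grey bar for the 95% confidence interval from limma. Slc4a1 and Car2 lie below 0 and Rhbg above 0 on all 3 arrays after loess, while without normalization of the dyes Slc4a1 and Car2 lie above 0.

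The V-ATPase is built of a cytosolic V1 part, which splits ATP, and a membrane V0 part, which passes the protons. Atp6v1b1 is the B subunit form of the intercalated cell. Its log2 ratio was 0.28, -0.05 and -0.06 on replicates 1 to 3, a mean of 0.06 ± 0.19 (SD, n = 3). Only replicate 1 lay clearly above 0, and the gene was not called (limma adjusted p = 0.63, 95% confidence interval -0.16 to 0.28). The normalized log2 intensity was 8.82 ± 0.03 in control and 8.88 ± 0.17 in G200, so the channels overlapped.

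Atp6v1g3 is the G subunit form of the V1 part found in these cells. The log2 ratio was 0.65 on replicate 1, 0.30 on replicate 2 and -0.01 on replicate 3, a mean of 0.31 ± 0.33. The G200 values covered a wider range than those of any other tested gene of the 8, and the gene was not called (limma adjusted p = 0.095). The normalized log2 intensity was 9.35, 9.29 and 9.26 in control and 10.00, 9.58 and 9.25 in G200, so that replicates 1 and 2 of G200 lay above control and replicate 3 just below it. Both pump genes had a higher ratio on replicate 1 than on replicates 2 and 3, and both were called higher under median centring, at 0.67 and 0.97.

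The promoters of these pump genes are shown because they were the only ones among the genes listed that held the letters a forkhead factor such as Foxi1 is known to bind. RefSeq promoters of 300 bases (build GRCr8) were found for 8 of the 10 genes and not for Slc4a1 and Car2. Capitals mark the forkhead core, TGTTTA or its reverse complement TAAACA, and the longer form TGTTTAC or GTAAACA, which contains the core. The Atp6v1b1 promoter lies at chr4:117781194-117781493 on the + strand, and that of Atp6v1g3 at chr13:52362082-52362381 on the + strand.
Atp6v1b1: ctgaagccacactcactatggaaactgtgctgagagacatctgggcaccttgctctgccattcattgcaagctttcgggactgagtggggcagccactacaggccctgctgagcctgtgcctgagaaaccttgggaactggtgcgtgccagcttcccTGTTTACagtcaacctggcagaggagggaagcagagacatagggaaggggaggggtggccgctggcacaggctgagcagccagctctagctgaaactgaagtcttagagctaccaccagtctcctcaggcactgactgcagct
Atp6v1g3: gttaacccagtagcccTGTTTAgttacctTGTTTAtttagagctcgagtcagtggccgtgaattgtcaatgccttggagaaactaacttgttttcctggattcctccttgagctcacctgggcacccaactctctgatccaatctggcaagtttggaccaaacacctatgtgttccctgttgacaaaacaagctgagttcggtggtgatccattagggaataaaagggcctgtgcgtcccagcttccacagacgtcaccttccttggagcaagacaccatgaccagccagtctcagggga
Atp6v1b1 held 1 copy of the longer form, which started at base 158 of the window. Atp6v1g3 held the core 2 times, starting at bases 17 and 30, and no copy of the longer form. Of all 33469 promoters in the table, 13.7% held the core and 3.78% the longer form. A match in letters is a description of the sequence and was not tested as a binding site.

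Slc4a1, the bicarbonate exchanger of type A cells, is also the band 3 protein of red cells. Its log2 ratio was -0.65, -0.51 and -0.89 on replicates 1 to 3, a mean of -0.68 ± 0.19. The normalized log2 intensity was 10.04, 9.99 and 9.94 in control and 9.39, 9.48 and 9.06 in G200. After loess Slc4a1 was lower in G200 on each array. It was called lower at 0.62-fold of control (limma adjusted p = 0.0034, 95% confidence interval of the log2 ratio -0.90 to -0.47).

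Before the dyes were normalized, the signal of Slc4a1 over local background was 670.0, 706.0 and 646.0 in control and 1226, 716.0 and 682.0 in G200. The red channel was thus the brighter one on each array, and the mean log2 ratio was 0.34 without normalization and -0.02 with median centring, neither of them called. These scalings moved the median of all genes tested to 0.62 and 0.27, and relative to it Slc4a1 stood at -0.28 under both. With the log ratio that the authors deposited, which carries Agilent's own dye normalization, the ratio was -0.62 and was called.

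Of 24 listed red cell genes, 13 were tested, and 9 of these were, on each array, well above background in both dyes. Among the 9, 2 were called lower (Hbb-bs and Ahsp), or 22.2% beside 24.4% of all 12485 such genes, and the median log2 ratio was -0.36 after loess, 0.23 with median centring and 0.58 without normalization, beside -0.03, 0.34 and 0.69 for all such genes. The lowest was Hbb-bs at -0.63 and the highest Rhd at -0.02, and with median centring Hbb-bs and Ahsp turned to 0.20 and 0.03. Ahsp was not called without replicate 3, at -0.22, without the replicate block, or with the deposited log ratio, at -0.45. The other 4 tested genes passed the filter through control alone and are left out of the counts above. With these 4 included, the median was -0.31, and -0.13 without replicate 3. In that fit 1 of the 13 was called lower, beside 9.9% of all genes tested. The summed intensity of the 13 genes was 149014, 144828 and 167925 in control and 159866, 130608 and 69172 in G200, with Hba-a1 the brightest. Replicate 1 of G200 lay within the control range of this sum, replicate 2 below it and replicate 3 far below it. The log2 ratio of Hba-a1, an alpha globin, was 0.03, -0.29 and -1.55, that of Hbb, a beta globin, 0.14, -0.08 and -1.23, and that of Alas2, the first enzyme of red cell heme synthesis, -0.01, -0.12 and -0.96. None of these 3 genes was called, their means turned from -0.61, -0.39 and -0.36 to 0.30, 0.48 and 0.23 with median centring, and their ratios varied between arrays far more than the ratio of Slc4a1. The part of red cells in the ratio of Slc4a1 was not tested.

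Slc26a4, the bicarbonate exchanger of type B cells, was at the limit of detection and was not tested. Its probe was printed in 10 spots per array, and in control it was not well above background, with 1, 0 and 0 of the 10 spots on replicates 1 to 3. In G200 the spots that passed this mark numbered 10, 1 and 10. The signal over local background, averaged over spots not marked as outliers, was 23.7, 23.1 and 19.5 in control and 105.0, 12.0 and 29.5 in G200. Replicate 1 of G200 was the bright one, with spots from 73.5 to 122.5 against 17.0 to 27.0 in control on the same array, and replicate 2 was the dim one.

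After loess the log2 ratio of Slc26a4 was 0.63 ± 0.13 (SD of 9 spots) on replicate 1, -0.0015 ± 0.17 (9 spots) on replicate 2 and 0.28 ± 0.12 (10 spots) on replicate 3. Replicate 2 was -0.08 with median centring but 0.12 without normalization and 0.22 with the deposited log ratio, so its direction turned with the scaling. The arrays differed by more than the spots within an array. The mean of the arrays was 0.30, and it was 0.31 with median centring, 0.66 without normalization and 1.64 with the deposited log ratio. The mean of the 3 arrays after loess was 1.23-fold. No higher floor was put under control, because its own signal was above the dimmest signal well above background on each array. G200 was measured on 2 of 3 arrays, and its value on replicate 2 enters the mean although it was not well above background there. The mean is therefore not a lower bound, and it is open to dye bias. When dim probes were kept, Slc26a4 was not called (limma adjusted p = 0.10).

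**Figure D2:**
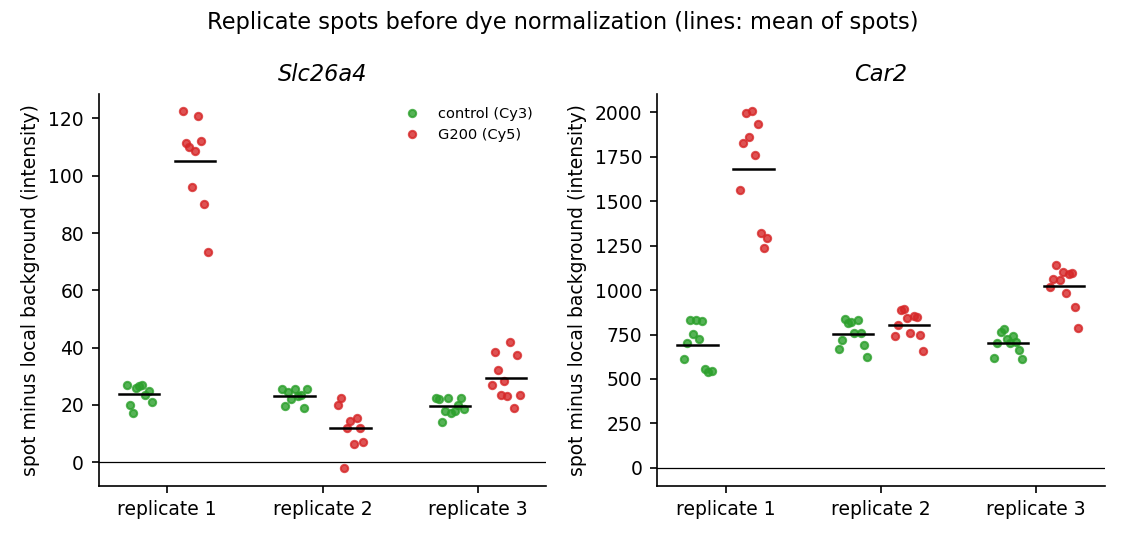
Signal of single spots minus local background (vertical axis, linear intensity before dye normalization) for the probes of Slc26a4 and Car2 on each array, with control in green, G200 in red and a black line at the mean. Slc26a4 in G200 averages 105.0 on replicate 1 and 12.0 on replicate 2, and Car2 is brighter in red on each array before the dyes are normalized.

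Rhbg, the ammonia channel of the blood-facing membrane, had log2 ratios of 0.81, 0.28 and 0.67 on replicates 1 to 3, a mean of 0.59 ± 0.27. Its normalized log2 intensity was 7.54, 7.57 and 7.55 in control and 8.35, 7.85 and 8.22 in G200. After loess Rhbg was higher in G200 on each array. It was called higher at 1.50-fold of control (limma adjusted p = 0.010, 95% confidence interval of the log2 ratio 0.32 to 0.86). It was higher under each scaling of the dyes, at 1.08 with median centring, 1.44 without normalization and 0.96 with the deposited log ratio, and called under each. Without replicate 3 the ratio was 0.55 and was no longer called (limma adjusted p = 0.081).

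Rhcg, found on both the urine-facing and the blood-facing membrane, had log2 ratios of 0.50, 0.10 and 0.06, a mean of 0.22 ± 0.24. It was above 0 on all 3 arrays, but the spread between arrays was as large as the mean and it was not called (limma adjusted p = 0.13). It was called with the deposited log ratio at 0.55 (limma adjusted p = 0.033), with median centring at 0.61 and without normalization at 0.96. Rhbg exceeded Rhcg in log2 ratio by 0.32, 0.18 and 0.61 on replicates 1 to 3, a difference given without a test.

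Car2, the cytosolic carbonic anhydrase, was printed in 10 spots per array, all of them well above background in both channels. The log2 ratio was -0.27 ± 0.05 (SD of 10 spots) on replicate 1, -0.45 ± 0.05 on replicate 2 and -0.48 ± 0.10 on replicate 3. Over the arrays the mean was -0.40 ± 0.11, and Car2 was called lower at 0.76-fold of control (limma adjusted p = 0.0093). The normalized log2 intensity was 10.07 ± 0.0075 in control and 9.67 ± 0.11 in G200.

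As with Slc4a1, the direction of Car2 depended on the scaling: it was 0.28 and not called with median centring, and 0.64 and called higher without normalization. Relative to the median of all genes tested, those values were 0.01 and 0.01, while after loess Car2 stood at -0.35. With the deposited log ratio Car2 was at -0.36 and missed the threshold (limma adjusted p = 0.0502). Without replicate 3 the log2 ratio after loess was -0.36 and was not called (limma adjusted p = 0.089).

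**Figure D3:**
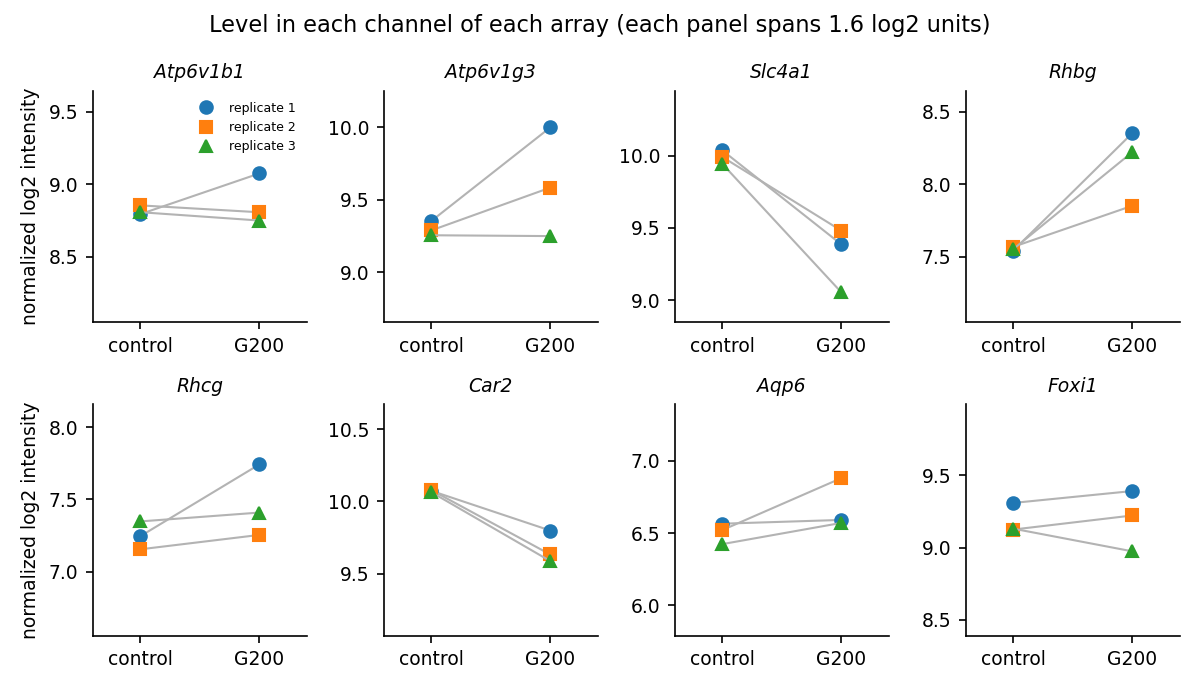
Normalized log2 intensity (vertical axis) of the 8 genes tested in the control and G200 channels, with grey lines joining the channels of one array. The control points of Rhbg lie between 7.54 and 7.57 and its G200 points between 7.85 and 8.35, whereas the channels overlap for Atp6v1b1 and Foxi1.

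Aqp6, an aquaporin of intracellular vesicles in type A cells, had log2 ratios of 0.03, 0.36 and 0.15 on replicates 1 to 3, a mean of 0.18 ± 0.17. Replicate 2 was the highest, unlike for the pump genes, where replicate 1 was. Its signal over local background in control was 38.0, 36.5 and 32.0, and it was not called (limma adjusted p = 0.14). It was 0.27 with median centring and 0.48 with the deposited log ratio, not called in either, and 0.63 and called without normalization. With offset 0 it was 0.41 and without replicate 2 it was 0.086.

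Foxi1 had 2 probes. The brighter one, with log2 ratios of 0.08, 0.10 and -0.16, averaged 0.01 ± 0.14 and was not called (limma adjusted p = 0.95, 95% confidence interval -0.18 to 0.20). The dimmer probe gave 0.17, -0.06 and 0.06, and in control it was not well above background on any array. After loess the brighter probe did not have the same sign on all 3 arrays, while with median centring it was above 0 on each. Under median centring the brighter probe averaged 0.64 and was called higher, and the dimmer probe averaged -0.09.

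**Figure D4:**
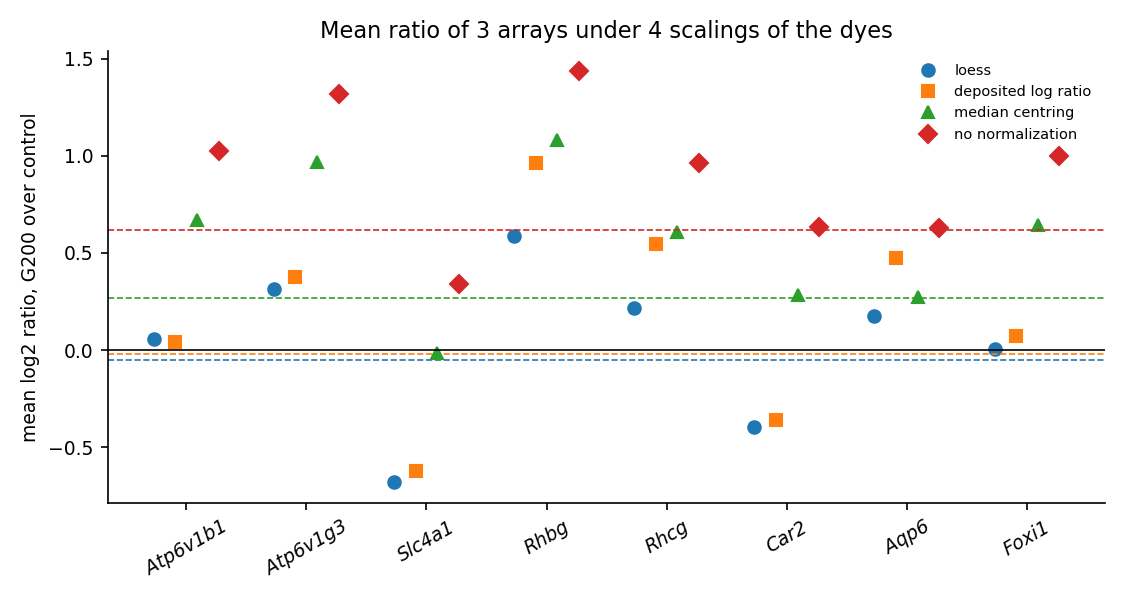
Mean log2 ratio of 3 arrays (vertical axis) for the 8 genes tested under 4 ways of scaling the dyes, with dashed lines of the same colour at the median of all genes tested. Slc4a1 goes from -0.68 after loess to 0.34 without normalization and Car2 from -0.40 to 0.64, while Rhbg is above 0 under each scaling.

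Of 23 other listed genes of the intercalated cell, 15 were tested and 14 were well above background in both channels. Of the 14, 3 were called higher and 3 lower, or 21.4% each, beside 12.6% and 24.4% of all such genes, with a median log2 ratio of 0.05. The higher genes were Atp6v0d2, the d subunit form of the V0 part, at 0.53, Car15, a membrane-bound carbonic anhydrase, also at 0.53, and Tfcp2l1, a transcription factor of the collecting duct, at 0.29. Among the lower genes were Kcnma1, a potassium channel, at -0.66, and Bsnd, also named barttin, at -0.33. The higher genes were above 0 under each scaling of the dyes, while Bsnd turned to 0.27 with median centring, and Kcnma1 was at -0.37 with it. Atp4a, a subunit of the proton and potassium pump, passed the filter through control alone, so its lower call is not counted. Over all 15 tested genes, 4 were called higher and 1 lower with median centring, beside 35.0% and 8.94% of all genes tested. Without replicate 3 these were 2 and 0, beside 1.21% and 9.9%.

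The V-ATPase subunits listed as shared with other cells had a median of 0.23. Of 18 tested genes, 7 were called higher (38.9%) and 3 lower (16.7%), beside 12.6% and 24.4% of all genes above background in both channels. The lowest was Tcirg1, an a subunit form, at -0.79 after loess, -0.19 with median centring and 0.16 without normalization, and the highest was Atp6v0e1, of the V0 part, at 0.67. Atp6v1b2, the B subunit form of most cells, was called higher at 0.55, and the log2 ratio of Atp6v1b1 minus that of Atp6v1b2 was -0.53, -0.30 and -0.66 on replicates 1 to 3, a difference not tested. With median centring 13 of the 18 genes were called higher, beside 35.0% of all genes tested. Without replicate 3, 1 was called higher and 2 lower, beside 1.21% and 9.9% of all genes tested. Without the replicate block it was 4 and 3, beside 7.26% and 21.7%.

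Genes of acid-base and ammonia handling in the proximal tubule, where ammonia is made from glutamine, had a median of 0.11, with 4 of 12 called higher (33.3%, beside 12.6%) and 2 lower (16.7%, beside 24.4%). Glul, which makes glutamine from ammonia, was at 0.45, Glud1, which releases ammonia from glutamate, at 0.22, the mitochondrial carrier Slc25a11 at 0.47 and the membrane-bound carbonic anhydrase Car4 at 0.48. Car14, another membrane-bound carbonic anhydrase, was lower at -0.84, and the scaffold protein Nherf1 was lower at -0.41 after loess and at 0.11 with median centring. Without replicate 3, limma called 0 of the 12 higher and 1 lower, beside 1.21% and 9.9% of all genes tested. In that fit 4 of the 12 had an unadjusted p under 0.05. Without the replicate block 2 were higher and 2 lower, beside 7.26% and 21.7%.

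**Figure D5:**
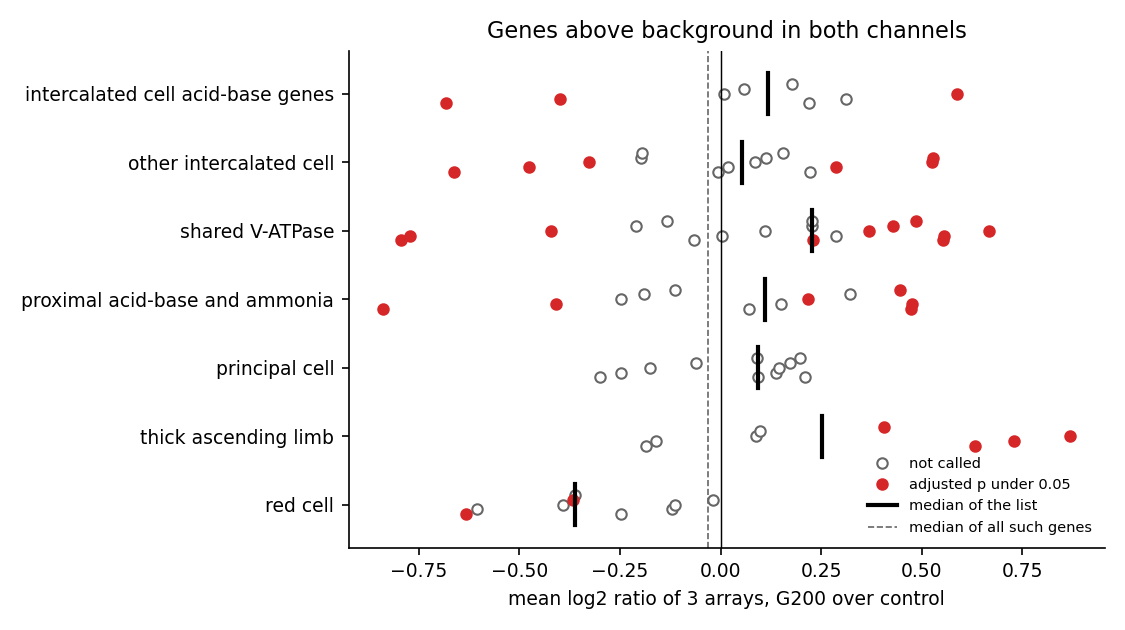
Mean log2 ratio of 3 arrays (horizontal axis) of each gene well above background in both channels in 7 lists, with filled points for genes called, a black bar at the median of a list and a dashed line at the median of all such genes, all after loess. The medians run from -0.36 for red cell genes (0.23 with median centring) to 0.25 for the thick ascending limb, and the intercalated cell acid-base genes have points called on both sides of 0; with median centring Slc4a1 and Car2 are not called.

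Markers of neighbouring cells were set beside these genes. Of 11 tested principal cell genes, the other cell type of the collecting duct, 0 were called by limma and 3 passed an unadjusted p under 0.05. Their median was 0.09, from Aqp2, the water channel, at -0.30 after loess and 0.56 with median centring, to Avpr2, the vasopressin receptor, at 0.21. With median centring 7 of the 11 were called higher, beside 35.0% of all genes tested. Thick ascending limb genes had 4 of 8 called higher, beside 12.6% of all genes above background in both channels, with a median of 0.25, from Slc12a1 at -0.18 (0.63 with median centring) to Umod at 0.87. With median centring 7 of the 8 were called higher, beside the same 35.0%. Without replicate 3 it was 2 of the 8, beside 1.21% of all genes tested. Their summed intensity was 50588 to 53226 in control and 75119 to 75952 in G200, with Umod the brightest.

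Liver genes were far lower in G200, in all 11 of the genes tested of 12 listed, with a median of -2.72. Their summed intensity was 100146, 130059 and 141940 in control and 29466, 10759 and 3872 in G200, with Ttr the brightest, and the log2 ratio of Alb was -2.06, -3.74 and -5.67. The lowest was Alb at -3.82 and the highest Cyp2e1 at -1.26. All 11 were called lower by limma, while 0 were called under the robust variance model, where 9 passed an unadjusted p under 0.05. The median of the list was also below 0 under the other scalings run, at -2.01 with median centring, -1.65 without normalization and -3.16 with the deposited log ratio. The part of these transcripts in the ratios of the acid-base genes was not tested.

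The remaining lists were of other cells of the kidney, and their counts stand beside the same 12.6% higher and 24.4% lower, and beside 35.0% higher with median centring. Proximal tubule genes had 3 of 12 higher and 2 lower with a median of 0.03, from Hnf4a at -0.32 (0.15 without normalization) to Slc5a2 at 0.66. Slc5a2 was not called, at 1.59, 0.16 and 0.22 on replicates 1 to 3, and Lrp2 was at 0.26. With median centring 8 of the 12 were called higher and the median was 0.79. Without replicate 3 limma called 0 of the 12, beside 11.1% of all genes tested, and 4 had an unadjusted p under 0.05. Podocyte genes had 1 of 6 higher among those above background in both channels, with a median of 0.38, from Plce1 at 0.07 to Ptpro at 0.78. Ptpro was not called, at 1.70, 0.32 and 0.33 on replicates 1 to 3. Of all 7 tested, 3 were called higher with median centring. It was 0 without replicate 3 and 0 without the replicate block, beside 1.21% and 7.26% of all genes tested. The median of the 7 was 0.36, and 0.17 without replicate 1. Endothelial genes had 1 of 7 lower, Pecam1 at -0.56 after loess and 0.14 with median centring, with a median of -0.07 that turned to 0.14 as well, and Emcn the highest at 0.14. Stromal genes had 2 of 9 higher, with a median of 0.10, from Acta2 at -0.13 (0.10 with median centring) to Dcn at 1.09, and with median centring 6 of the 9 were called higher. Leukocyte genes had 1 of 8 lower on the same terms, C1qb at -0.43 after loess and 0.22 with median centring, with a median of -0.08 that turned to 0.20, and C1qa the highest at 0.11. Of the distal convoluted tubule genes 2 of 8 were tested, Trpm7 at 0.10 and Slc12a3 at 0.34. Slc12a3 was at 1.23, -0.0036 and -0.20 on replicates 1 to 3. After loess, limma called 0 of these 2 genes, with 0 at an unadjusted p under 0.05. It called 1 higher with median centring and 2 without normalization, beside 35.0% and 56.5% of all genes tested.

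The genes whose log2 ratios over the 3 arrays were most like the median of the acid-base genes were Gpatch1, Ralb and Ccndbp1, by Euclidean distance, at 0.027, 0.032 and 0.034. They were taken from 8893 tested genes with a symbol, and likeness over 3 arrays is a description of these values alone.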

How the data were processed

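Kidney RNA was measured on 3 Agilent arrays of 2 colours (control in Cy3, G200 in Cy5), all on 1 slide and read in 1 scan. The authors deposited Feature Extraction output (version 11.5.1.1 in the file header, 9.3.2.1 in the processing notes), with the median spot and local background intensity of each channel. The deposited files also hold a log10 ratio of Cy5 over Cy3 after Agilent's dye normalization, which was converted to log2 and used as an alternative only.

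Intensities were corrected with normexp (offset 50) and normalized by loess within arrays in limma 3.58.1 (R 4.3.3), with control spots at weight 0. Outlier spots (635, 736 and 945 of 42877) were left out and replicate spots averaged. Probes were kept if over 0.5 of their spots were well above background on all 3 arrays in one of the channels (15649 of 30367), and the brightest probe stood for a gene. Accessions were matched without versions to RefSeq symbols (GRCr8) for 18355 probes. Log2 ratios were set against 0 in a two-sided test (lmFit, then eBayes), p-values were adjusted over 14179 genes by the Benjamini-Hochberg method, and the fit was checked on simulated data. Intensities of single channels were scaled with Aquantile. The precision is limited by the number of arrays.

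The members and lists were chosen with earlier results of these data known. Named genes were every member, called genes of the other intercalated cell and proximal acid-base lists, the lowest and highest gene of each other list, defining markers and the 3 nearest genes. Genes named outside that rule (the called red cell genes, Atp4a and Atp6v1b2) were chosen after their values were seen. Alternatives covered the scaling of the dyes, background, filter, probe rule, variance model, test, channel pairing and each replicate.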

Additional observations from a re-analysis of the deposited data

How the results depend on the processing

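The calls of Slc4a1 and Car2 depended on the scaling of the dyes, that of Rhbg did not, and all 3 depended on the test. With median centring 5 of the 8 genes were called and without normalization 7, each of them higher, beside 35.0% and 56.5% of all genes called higher. The median log2 ratio of the genes was 0.63 and 0.98 under these settings, where the median of all genes tested was 0.27 and 0.62. Of all genes called, 30.6% were higher after loess, 79.6% with median centring, 96.3% without normalization and 40.3% with the deposited log ratio. Slc4a1 turned to 0.34 without normalization, and Car2 to 0.28 with median centring and 0.64 without normalization; the cause was not tested. Foxi1 turned to -0.0021 with no background correction.

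The methods' t-test, run on the ratios of the arrays and again on the separate channels, called 0 of the 8 genes each time after Benjamini-Hochberg adjustment, and 2 and 360 of all genes, against 5318 with limma. At an unadjusted p under 0.05 each passed 2 of the 8 genes, Slc4a1 and Car2, and 4472 and 4208 of all genes. Called genes among all tested numbered 3538, 4977 and 1575 without replicates 1, 2 and 3, or 25%, 35.1% and 11.1%. Leaving out a replicate gave 1 to 3 calls among the acid-base genes, with 1 (Slc4a1) without replicate 3. The median log2 ratio then ran from 0.025 to 0.15, that of Atp6v1b1 from -0.052 to 0.12 and that of Foxi1 from -0.037 to 0.090.

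The control RNA was counted as 1 sample, but the fit and the t-test on separate channels took its 3 channels as 3 values. Without the replicate block, in the fit of separate channels, 3 genes were called, as in the paired fit, beside 28.9% of all genes tested. The same count was found with the deposited log ratio, no background correction, offset 0, both filters and the robust variance model. It was also found with the mean of probes and with subtraction of each array's all-gene median, the last chosen after seeing the data. Among these settings, 34.8% to 39.8% of all genes tested were called, except 21.0% with dim probes kept, where 9 acid-base genes were tested. With the deposited log ratio the 3 genes called were Rhbg, Rhcg and Slc4a1, and Car2, at -0.36, missed the threshold (limma adjusted p = 0.0502). A slide or scan block was not run, because the 3 arrays shared 1 slide and 1 scan. Signal over background limited Slc26a4, the dimmer Foxi1 probe and Aqp6.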
